A study of Homo sapiens with 4 samples.

Results

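Interferon-stimulated genes are the genes that cells transcribe in response to interferons, and 46 of them were followed here by their gene names on an expression array. They were 46 of 43317 gene names and 63 of 58201 gene probes on the array, with 16 genes carrying more than 1 probe. The rule that picks them uses gene names and no measured value, though the list was drawn up with earlier results of these data known. They fall into 10 groups by role, from RNA sensors and transcription factors to antiviral effectors and chemokines.

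The study transfected HCT116, an established colorectal cancer line, and A549, an established lung cancer line, with miR-891b, a microRNA, or with NC1, its negative control. All cells received the transfection reagent Dharmafect1. The 4 groups were thus NC1 and miR-891b cells of each line, and the total RNA of each was measured on 1 array. No untransfected or reagent-only cells were analysed here, so the NC1 arrays show cells that had also received a transfected RNA. The dose and the time after transfection are not given in the sources used here.

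Cells detect viral or other foreign double-stranded RNA with sensors of the RIG-I family and with Toll-like receptors, and adaptor proteins then switch on interferon genes. Secreted interferon binds its receptors, the kinases JAK1 and TYK2 are activated, and the factor ISGF3, which contains STAT2 and IRF9, binds a promoter element called the interferon-stimulated response element. The genes that follow encode proteins that degrade RNA, block translation of viral RNA, trap virus particles at membranes or recruit leukocytes. Several of the sensors and factors are themselves induced by interferon, so the response feeds back on itself.

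The mature sequence of the transfected microRNA is shown with its seed (bases 2 to 8) in capitals, since the seed is the part that pairs with target RNA. It is from RefSeq (GRCh38.p14, chrX:146001100-146001121, minus strand).
hsa-miR-891b: uGCAACUUaccugagucauuga
The DNA letters that pair with the seed, AAGTTGC, were in 0 of the 63 probes of the 46 genes, which speaks only of the probe sequences and not of whole transcripts.

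Promoter sequence, from RefSeq on the same build, was in hand for 35 of the 46 genes. In windows of 300 bases (250 before to 50 after the transcription start), the core of the response element, searched as GAAA, 2 bases of any kind and GAAA on both strands with overlapping matches counted, was found for 23 of the 35 genes (65.7%). It was in 1255 of 35116 promoters in the table (3.57%), or 1195 of 27305 genes (4.38%). A match describes the letters and is not evidence of binding. Upstream stretches of 100 bases are shown for IFI44, IFIT3 and MX1, which were higher with miR-891b in A549, for IFITM1 and BST2, which were lower in HCT116, and for IFI6, which lay just inside the 2-fold limit there. Each is read 5′ to 3′ on the strand of its gene, with the matches in capitals.
IFI44 (chr1:78649689-78649788, plus strand, bases 100 to 1 before the start): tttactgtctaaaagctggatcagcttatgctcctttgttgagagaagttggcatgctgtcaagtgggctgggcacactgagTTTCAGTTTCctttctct
IFIT3 (chr10:89332429-89332528, plus strand, bases 100 to 1 before the start): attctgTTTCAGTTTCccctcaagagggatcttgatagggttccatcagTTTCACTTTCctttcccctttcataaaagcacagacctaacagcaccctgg
MX1 (chr21:41431809-41431908, plus strand, bases 241 to 142 before the start): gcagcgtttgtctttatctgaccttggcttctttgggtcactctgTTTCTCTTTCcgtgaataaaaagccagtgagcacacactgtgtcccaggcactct
IFITM1 (chr11:313940-314039, plus strand, bases 100 to 1 before the start): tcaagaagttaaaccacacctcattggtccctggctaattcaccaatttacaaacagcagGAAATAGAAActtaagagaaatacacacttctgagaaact
BST2 (chr19:17405700-17405799, minus strand, bases 169 to 70 before the start): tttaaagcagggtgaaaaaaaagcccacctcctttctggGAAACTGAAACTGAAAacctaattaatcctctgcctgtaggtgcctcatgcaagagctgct
IFI6 (chr1:27672231-27672330, minus strand, bases 138 to 39 before the start): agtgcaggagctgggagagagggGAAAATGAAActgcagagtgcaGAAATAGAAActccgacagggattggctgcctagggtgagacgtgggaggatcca
IFIT3 and IFI6 hold 2 separate matches in these stretches, and those of BST2 overlap. The promoter of IFI44 holds 1.

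Levels are given as log2 of the background-subtracted signal relative to the 75th percentile of gene probes on the same array, so that 0 is the 75th percentile and each unit is a doubling. The processed signal at that percentile was 54.9, 57.0, 74.8 and 74.2 for NC1 and then miR-891b in HCT116, followed by NC1 and then miR-891b in A549, which is also the order of the levels below. Between 44.7% and 50.3% of the probes were well above background, and 0 were saturated. Each line had its own slide, so line and slide cannot be told apart where A549 is compared with HCT116. Areas of stray brightness covered 10.5% of the gene spots on the miR-891b array of HCT116 and 2.19% on its NC1 array, and 1.83% and 0.0213% on the corresponding A549 arrays. The probes of 10 of the 46 genes lay in such an area on at least 1 array. On the NC1 arrays the 6 A549 markers summed to 3168 times the percentile in A549 and 67.6 in HCT116, and the 4 HCT116 markers to 180 in HCT116 and 7.64 in A549, as the labels say. On the miR-891b arrays the A549 markers summed to 2201 in A549 and 59.4 in HCT116, and the HCT116 markers to 142 in HCT116 and 13.6 in A549. AKR1B10, an A549 marker, was 22.2-fold higher with miR-891b than with NC1 in HCT116, a difference of 4.47, and by 4.05 at its other probe. It did not stand for its list: of the 4 A549 markers measured in HCT116, 1 was higher by 2-fold and 3 were below 0. Their median was -0.38. The part of these marker differences in the results below was not tested.

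With 1 array per group nothing within a line can be set against replicates or given a p-value, and a gene is called lower or higher by size alone, at 2-fold or more with its probe well above background on both arrays. Repeated spots gave a median SD of the log2 difference of 0.061 in HCT116 (276 probes) and 0.071 in A549 (287 probes), which covers spots and not cultures or labelling. Of the 46 genes, 38, 36, 41 and 40 were well above background on the 4 arrays. On all 4 it was 34 genes. RSAD2, which encodes the antiviral enzyme viperin, and CXCL11, a chemokine for T cells, were not well above background on any array, with levels from -5.84 to -4.98 and from -6.16 to -5.33. In such bulk RNA, fewer cells with a transcript and less of it per cell cannot be told apart.

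**Figure D1:**
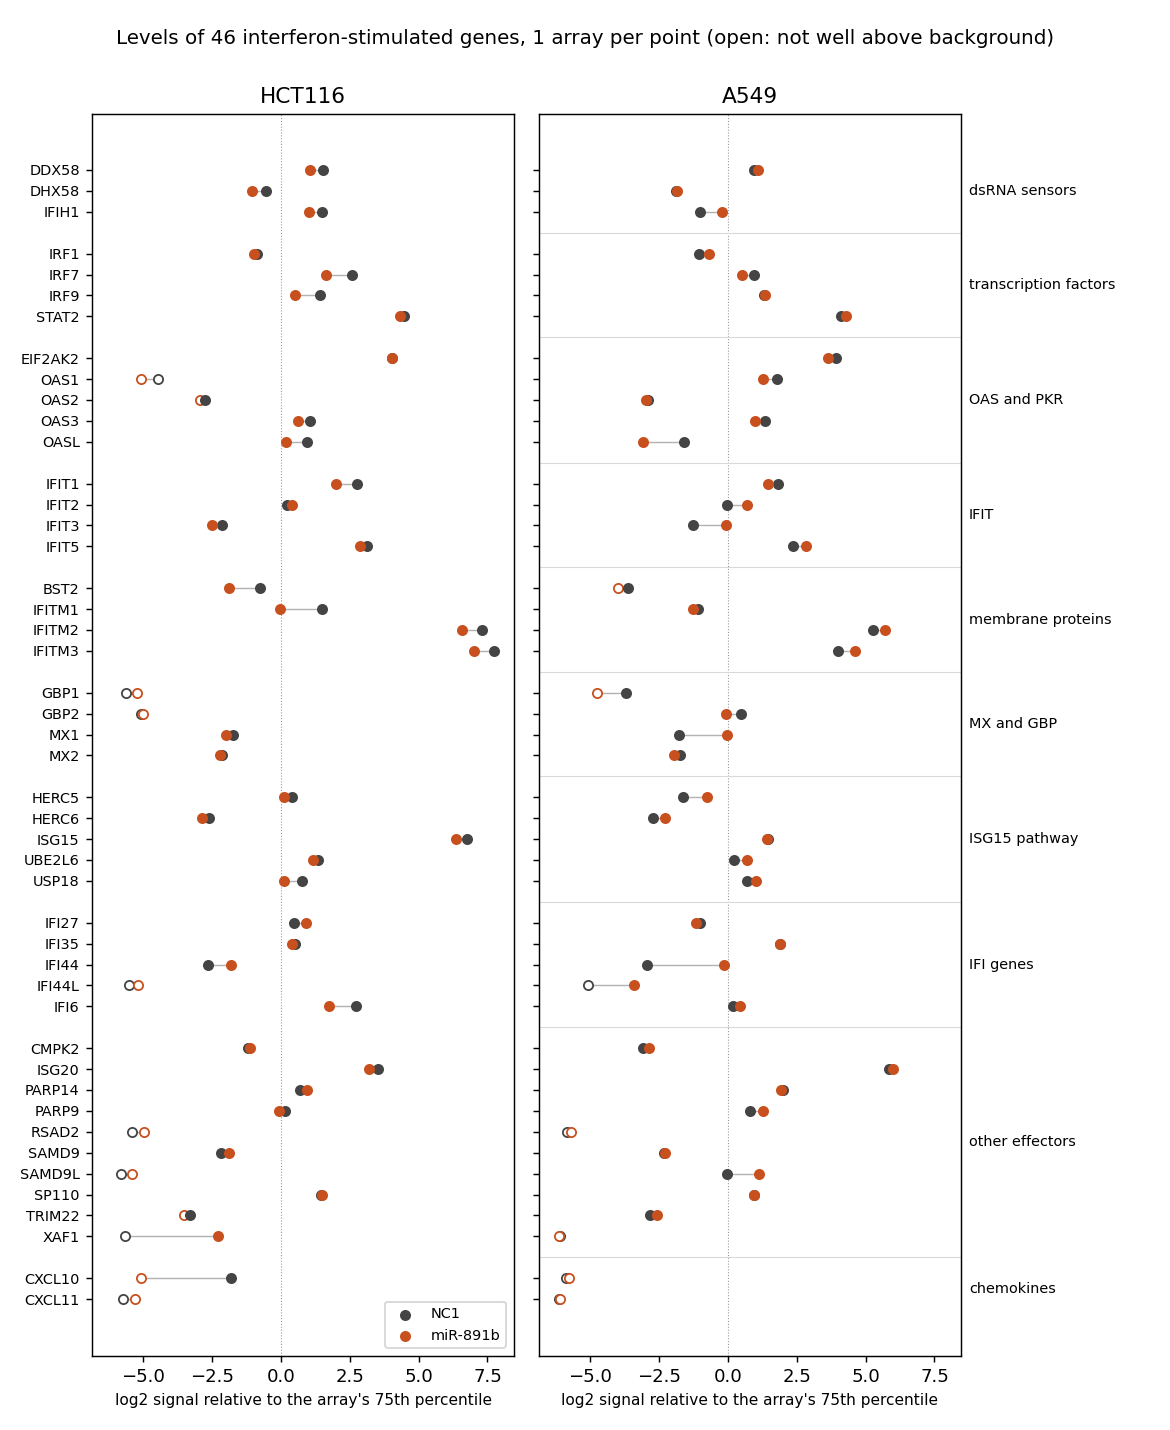
Level of each of the 46 genes on each array (log2 signal relative to the array's 75th percentile), with HCT116 on the left, A549 on the right, NC1 in grey and miR-891b in orange, and open circles where the probe was not well above background. The miR-891b point lies left of NC1 for most genes in HCT116, and IFI44, MX1 and IFIT3 move clearly to the right in A549.

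In HCT116 the first question was whether these genes differed between miR-891b and NC1 cells. IFITM1 and BST2, which encode membrane proteins that hold back virus entry and release, were lower with miR-891b, and no gene was higher by 2-fold. Of 35 measured genes, 2 were lower by 2-fold (all genes measured, 0.843%) and 0 were higher (all genes, 1.16%). The differences ran from -1.52 for IFITM1 to 0.80 for IFI44. They were below 0 for 28 of the 35 genes (80%), against 55.5% of all 19105 genes measured, and their median was -0.30 against -0.041, with an SD over all genes of 0.38. These signs are those of the brightest probe of each gene. Of 9 genes with at least 2 measured probes in HCT116, 4 had probes of opposite sign past the SD of repeated spots.

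In A549 the same question gave another picture. IFI44 was 7.01-fold, MX1 3.40-fold, IFIT3 2.29-fold and SAMD9L 2.24-fold higher with miR-891b. OASL was 2.79-fold lower. Per the files, the probes of the genes past 2-fold lie on hg19 at chr1:79128479-79128538 (IFI44), chr21:42831014-42831073 (MX1), chr10:91099762-91099821 (IFIT3), chr7:92760219-92760278 (SAMD9L), chr12:121458320-121458379 (OASL), chr11:315209-315268 (IFITM1) and chr19:17514054-17514113 (BST2), and the exon each lies in was not looked up here. Of 39 measured genes, 4 were higher (all genes, 4.0%) and 1 was lower (all genes, 5.57%). The differences were below 0 for 15 of the 39 genes (38.5%), against 55.6% of all 21335 genes, and their median was 0.17 against -0.059, with an SD over all genes of 0.61. Of 10 genes with at least 2 measured probes in A549, 4 had probes of opposite sign past the SD of repeated spots. None of the 7 calls in the 2 lines reached 2-fold after normexp correction with an offset of 50 and quantile normalization. The differences were then -0.92 for IFITM1, -0.37 for BST2, 0.89 for IFI44, 0.71 for MX1, 0.50 for IFIT3, 0.77 for SAMD9L and -0.28 for OASL. The offset is added to the signal of every spot and is near the processed signal at the 75th percentile (54.9 to 74.8). It draws differences at such signals toward 0, so this setting cannot show whether a 2-fold call holds. Under that setting the shares of all genes past 2-fold lower and higher also fell, to 0.063% and 0.141% in HCT116 and to 2.01% and 1.57% in A549.

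**Figure D2:**
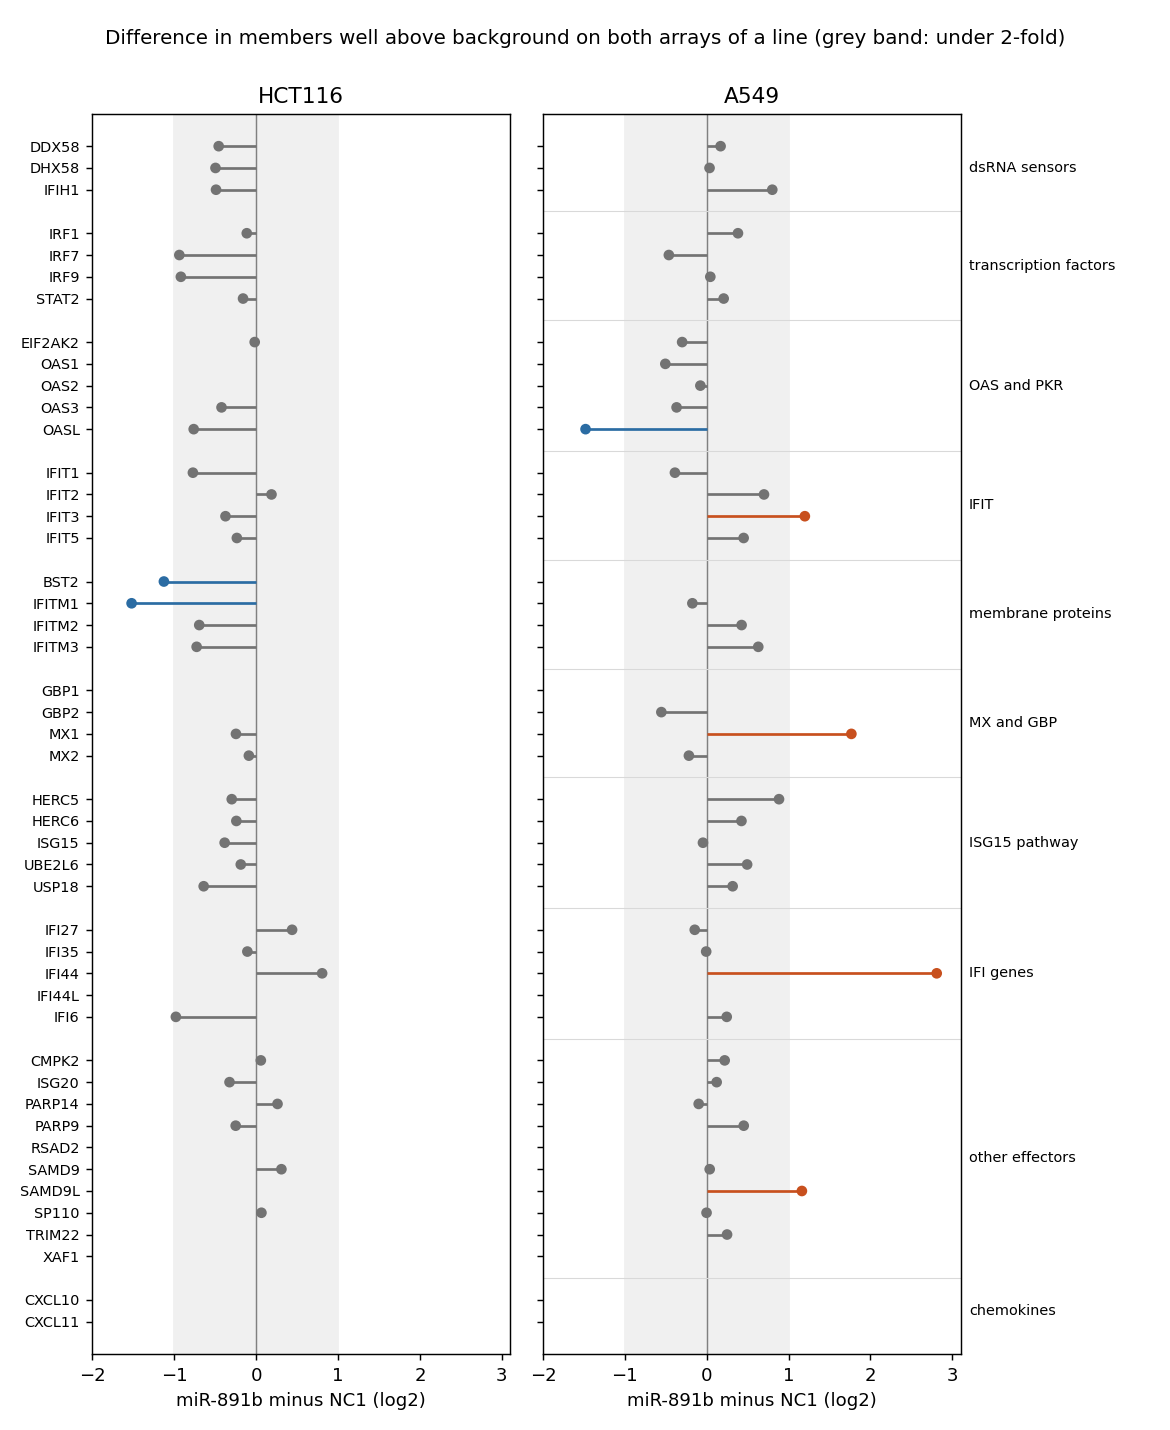
Difference between miR-891b and NC1 (log2) in HCT116 (left) and A549 (right) for genes well above background on both arrays of the line, in order of role, with the range under 2-fold shaded and genes past it in blue (lower) or orange (higher). Genes with no point were not measured in that line, among them both chemokines, and all 4 membrane protein genes lie left of 0 in HCT116.

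The sensors of double-stranded RNA were measured in both lines. DDX58, which encodes RIG-I, had levels of 1.52, 1.07, 0.93 and 1.1. IFIH1, which encodes MDA5, had levels of 1.5, 1.00, -1.03 and -0.23. For DHX58, which encodes the regulator LGP2, they were -0.55, -1.05, -1.88 and -1.84. None of the 3 passed 2-fold within a line. Their differences in HCT116 lay close together, at -0.46, -0.49 and -0.50, whereas in A549 IFIH1 differed by 0.80 and the other sensors by 0.17 and 0.03. A dimmer probe of DDX58 went the other way in HCT116, at 0.45, so the direction of DDX58 there depends on the probe.

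The transcription factor genes likewise stayed within 2-fold. IRF7, the factor that amplifies the production of type I interferon, had levels of 2.56, 1.62, 0.95 and 0.49, and differed by -0.94 and -0.46, so that the miR-891b array was the lower one in both lines. IRF9, the DNA-binding subunit of ISGF3, had levels of 1.41, 0.49, 1.31 and 1.35, so that a difference of -0.92 in HCT116 stood beside 0.04 in A549. Its dimmer probe gave -0.32 and -0.16. STAT2, the partner of IRF9, differed by -0.16 and 0.21, and IRF1, a factor induced by interferon gamma and by virus, by -0.12 and 0.38. The STAT2 probe lay where 19.6% of the surrounding dim spots were bright on the HCT116 miR-891b array. All 4 factor genes had values below 0 in HCT116, and 1 of 4 did in A549.

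The OAS enzymes, which sense double-stranded RNA and activate RNase L, and PKR, the kinase encoded by EIF2AK2 that stops translation, had values below 0 at the brightest probe of each gene, for 3 of 3 measured in HCT116 and 5 of 5 in A549. OASL, an OAS-like protein that binds RIG-I and lacks the enzyme activity, had levels of 0.94, 0.17, -1.61 and -3.09. It was therefore lowest on the A549 miR-891b array and differed by -1.48 in A549, past 2-fold, and by -0.76 in HCT116. OAS3 differed by -0.42 and -0.37 at its brighter probe. A dim probe of OAS3 gave 2.02 in HCT116, in a place where 13.3% of the surrounding dim spots were bright, and 0.25 in A549. OAS1 had levels of 1.77 and 1.27 in A549 and did not exceed background in HCT116, and EIF2AK2 differed by -0.02 and -0.30. The EIF2AK2 probe lay where 30.9% of the surrounding dim spots were bright on the A549 miR-891b array, and its dimmer probe gave -0.23 in A549. OAS2 had levels of -2.75, -2.96, -2.91 and -2.99, near the background limit. It was well above background in HCT116 with NC1 only (at least 1.15-fold higher than with miR-891b), and it differed by -0.08 in A549, where its other measured probe gave 0.13.

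The IFIT genes encode proteins that bind the ends of foreign RNA or join those that do, and hinder its translation. IFIT3 had levels of -2.15, -2.52, -1.29 and -0.09, highest with miR-891b in A549, where it differed by 1.20, and it differed by -0.38 in HCT116. IFIT2, the partner of IFIT3 in a complex, had levels of 0.21, 0.39, -0.03 and 0.67 and differed by 0.19 and 0.70, and its dimmer probe gave -0.12 and 0.82. The brighter probe lay where 17.9% of the surrounding dim spots were bright on the HCT116 miR-891b array. IFIT1 went the other way from its neighbours in A549, with levels of 2.77, 1.99, 1.83 and 1.44 and differences of -0.77 and -0.39. IFIT5 differed by -0.24 and 0.45. The 4 IFIT genes thus did not share a direction: IFIT1 was below 0 in both lines, IFIT2 above 0 in both at its brighter probe, and IFIT3 and IFIT5 had opposite signs in the lines.

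The membrane proteins had the group median farthest from 0 in HCT116, at -0.93, with all 4 genes below 0. IFITM1, which acts against viruses at the cell surface, had levels of 1.5, -0.02, -1.09 and -1.26, high only on the HCT116 NC1 array. The difference in HCT116 was -1.52, or 2.87-fold, and the other probe gave -1.31. In A549 the probes of IFITM1 disagreed, at -0.17 and 0.54. The probe that gave 0.54 lay where 13.2% of the surrounding dim spots were bright on the A549 miR-891b array. BST2, which encodes tetherin, the protein that ties budding virus to the cell, had levels of -0.75, -1.88, -3.63 and -3.99. It differed by -1.13 in HCT116, or 2.18-fold, and by -0.85 at its other probe, so that the mean over probes, -0.99, was just under 2-fold. On the A549 miR-891b array BST2 was not well above background, and NC1 was at least 1.24-fold higher. IFITM2 and IFITM3 act in endosomes. The levels of IFITM2 were 7.29, 6.59, 5.27 and 5.69, and those of IFITM3 were 7.75, 7.03, 3.99 and 4.62. They differed by -0.70 and -0.73 in HCT116 and by 0.43 and 0.63 in A549. The IFITM2 probe lay where 22.4% of the surrounding dim spots were bright on the HCT116 miR-891b array. The IFITM genes are close copies of each other, so a share of cross-hybridised signal between their probes was not tested.

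Among the GTPases, MX1, whose protein traps viral nucleoproteins, had levels of -1.75, -2.0, -1.79 and -0.03. The 3 other arrays lay within 0.25 of each other and the A549 miR-891b array stood above its NC1 array by 1.77, or 3.40-fold. MX2, its neighbour on chromosome 21, had levels of -2.14, -2.23, -1.74 and -1.95 and differed by -0.09 and -0.22. Its other probe was well above background with NC1 only in both lines, at least 1.72-fold higher than with miR-891b in A549. GBP2, a guanylate-binding protein of the interferon gamma response, had levels of 0.46 and -0.09 in A549 and was not well above background in HCT116. GBP1, of the same family, was well above background only with NC1 in A549, at -3.71 beside -4.77 with miR-891b, at least 1.17-fold higher than with miR-891b.

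ISG15 is a ubiquitin-like protein that is joined to other proteins by UBE2L6 and by HERC5 and removed by USP18. ISG15 had levels of 6.75, 6.37, 1.46 and 1.41 and differed by -0.39 and -0.05. In HCT116 the 5 genes of this pathway were all below 0, with a median of -0.30 and USP18 at -0.64. In A549 the median was 0.42, and 1 of 5 was below 0. HERC5 had levels of 0.40, 0.11, -1.64 and -0.75 and differed by 0.88 in A549, short of 2-fold. UBE2L6 and HERC6, a relative of HERC5, differed by 0.49 and 0.42 in A549, and a dimmer probe of HERC6 gave 0.28 in HCT116 against -0.24.

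IFI44, a cytoplasmic protein of uncertain mechanism, was the measured gene farthest above 0 in both lines. Its levels were -2.64, -1.83, -2.94 and -0.14, with processed signals of 8.82, 16.0, 9.71 and 67.5, so the A549 miR-891b array was high and the other arrays were dim. The difference was 2.81 in A549, or 7.01-fold, and 0.80 in HCT116. The related gene IFI44L had levels of -5.51, -5.18, -5.07 and -3.42 and was well above background on the A549 miR-891b array only, at least 1.45-fold higher than with NC1. IFI6, a mitochondrial protein that opposes cell death, had levels of 2.72, 1.74, 0.18 and 0.42. Its difference of -0.98 in HCT116 lay just inside the 2-fold limit, and 14.4% of the dim spots around its probe were bright on the A549 miR-891b array. IFI27 differed by 0.44 and -0.15, and IFI35 by -0.11 and -0.01. The IFI35 probe lay where 21.1% of the surrounding dim spots were bright on the HCT116 miR-891b array.

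Of the remaining effectors, SAMD9L passed 2-fold in 1 line. SAMD9L, a large cytoplasmic protein that limits virus growth, was not well above background in HCT116, at -5.83 and -5.42, and had levels of -0.04 and 1.12 in A549. It was 2.24-fold higher there with miR-891b, a difference of 1.16, and its other probe gave 1.11. SAMD9, the neighbouring gene, had levels of -2.20, -1.89, -2.34 and -2.30 and differed by 0.04 in A549. ISG20, an RNA exonuclease, had levels of 3.52, 3.20, 5.86 and 5.98, and PARP9, PARP14, SP110 and CMPK2 differed by between -0.25 and 0.45 in either line, with -0.17 at another probe of PARP9 in A549. TRIM22, a ubiquitin ligase, was well above background in HCT116 with NC1 only, with levels of -3.30 and -3.52 that allow no fold, and differed by 0.25 in A549.

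Detection on only 1 array of a pair was most marked for 2 genes in HCT116. CXCL10, a chemokine that draws activated T cells, had levels of -1.82 with NC1 and -5.08 with miR-891b and was well above background with NC1 only, at least 2.49-fold higher. XAF1, a protein that favours apoptosis, had levels of -5.69 and -2.28 and was well above background with miR-891b only, at least 2.40-fold higher. Both genes had another probe, dark on all 4 arrays, and the probes that gave the signal lay where 13.1% (CXCL10) and 18.4% (XAF1) of the surrounding dim spots were bright. In A549 neither gene was well above background, with levels of -5.90 and -5.76 for CXCL10 and of -6.10 and -6.13 for XAF1. The part of stray brightness in these 2 results was not tested.

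The HCT116 and A549 controls were then compared for the level of the genes in NC1 cells. In NC1 cells 14 of 37 measured genes were at least 2-fold lower in A549 than in HCT116 (all genes measured, 16.2%) and 3 were higher (all genes, 11.1%). Values were below 0 for 29 of 37 genes (78.4%), against 55.0% of all 19217 genes, and the median was -0.38 against -0.10. Each NC1 array is also the reference of its line in the comparisons with miR-891b above, so these results are not independent. A gene bright on the HCT116 NC1 array alone falls below 0 both here and in the HCT116 comparison. ISG15 differed by -5.30, IFITM3 by -3.77, BST2 by -2.87, IFITM1 by -2.58, OASL by -2.55, IFI6 by -2.54 and IFIH1 by -2.52. The other genes past 2-fold lower were HERC5, IFITM2, CMPK2, IRF7, IFI27, DHX58 and UBE2L6, at -2.04 to -1.14. All 4 membrane protein genes and 2 of the 3 sensors were among the 14. On the other side stood ISG20 at 2.34, IFI35 at 1.39 and PARP14 at 1.33. Some genes were not well above background in HCT116 NC1: OAS1 was at least 39.9-fold, GBP2 at least 16.1-fold and SAMD9L at least 11.4-fold higher in A549 NC1, whereas CXCL10 was at least 4.40-fold higher in HCT116 NC1. After normexp correction with quantile normalization the counts were 8 lower (all genes, 7.25%) and 1 higher (all genes, 6.0%).

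The 2 lines were set side by side for the 34 genes that exceeded background on each of the 4 arrays. In 18 of them (52.9%) the value at the brightest probe was below 0 in HCT116 and above 0 in A549, compared with 21.8% of all 18063 such genes. Both values were below 0 for 9 genes (26.5%, all genes 33.8%), both above 0 for 4 (11.8%, all genes 21.1%), and 3 (8.82%, all genes 23.3%) were above 0 in HCT116 only. IFIT3 (-0.38 and 1.20), MX1 (-0.25 and 1.77), HERC5 (-0.30 and 0.88) and IFIH1 (-0.49 and 0.80) are of the first kind, and OASL, IRF7 and IFIT1 were below 0 in both lines. These values describe 4 arrays, and no test of line against line was possible.

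**Figure D3:**
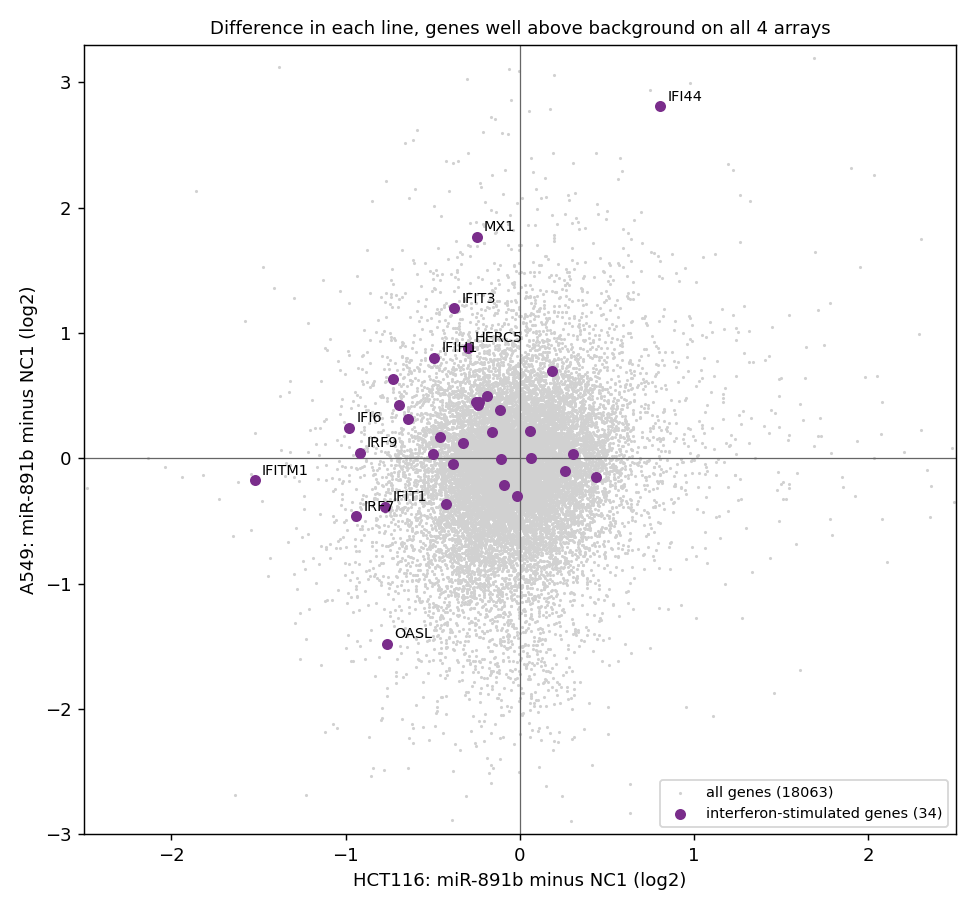
Difference between miR-891b and NC1 (log2) in HCT116 (horizontal) and A549 (vertical) for the 34 genes (purple) and all 18063 genes above background on every array (grey), of which 13 lie outside the plotted range. The upper left part, below 0 in HCT116 and above 0 in A549, holds 18 of the 34 genes, and IFI44, at the upper right, has the largest A549 difference of the 34.

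The additive model asked for a difference shared by both lines, with the line as a term and 1 residual degree of freedom. limma called 0 of 40 tested genes of the set at an adjusted p under 0.05 (all 22712 genes, 0%), and the smallest adjusted p among the 40 was 0.793. With so few arrays and no gene called at all, this result cannot show that the set lacked a shared difference. At an unadjusted p under 0.05 in limma it was 2 of the 40 and 1214 of all 22712 genes. These shares are similar, so the 2 genes do not set the group apart. OASL had a mean difference of -1.12 (SE 0.29, limma, adjusted p = 0.793), below 0 in 2 of 2 lines, and IFI44 one of 1.81 (SE 0.54, limma, adjusted p = 0.793), above 0 in 2 of 2 lines. Without a filter on dim probes limma called 6 genes, 0 of them in the set.

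Genes upstream of the response were read from lists chosen by name. Of 7 interferon genes on the array, IFNB1, IFNK, IFNG, IFNL1 and IFNL3 were not well above background on any array. IFNE, the epithelial type I interferon, had levels of -1.58, -0.31, -0.22 and 1.88 and was higher with miR-891b in both lines, by 1.27 in HCT116 and 2.10 in A549. Its probe lay where 21.1% of the surrounding dim spots were bright on the HCT116 miR-891b array, but 2.17% on the A549 one. IFNL2, a type III interferon, had levels of -1.80, -2.35, -2.41 and -2.67 and differed by -0.55 and -0.26. The IFNL2 probe lay where 16.1% of the surrounding dim spots were bright on the HCT116 miR-891b array.

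Receptors and signal carriers stayed within 2-fold. The 6 receptor genes had medians of -0.18 in HCT116 and 0.099 in A549, with IFNAR1, a chain of the type I receptor, at 0.37 and 0.06 and IFNLR1, the type III receptor chain, at -0.30 and -0.25. Among kinases and factors, TYK2 was below 0 in both lines at -0.74 and -0.73. JAK1 differed by 0.08 and -0.30, and IRF3, the factor that first switches on the interferon beta gene, by -0.25 and -0.37. No sensor or adaptor outside the 46 passed 2-fold, and TLR3, which detects double-stranded RNA in endosomes, came nearest at 0.94 in A549. SOCS1, an inhibitor of the receptor kinases that interferon induces, had levels of 1.07, 0.95, -2.35 and -1.16 and was higher by 1.19 in A549.

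A further 42 interferon-stimulated genes outside the 46 were counted in the same way. In HCT116 0 of 34 measured passed 2-fold (all genes, 0.843% lower and 1.16% higher). The median was -0.080, nearer to that of all genes than the median of the 46. In A549 1 of 38 was lower (all genes, 5.57%) and 1 higher (all genes, 4.0%), with a median of 0.11. The higher one was PARP12, an ADP-ribosyltransferase, at 1.21. The lower one was SP100, a nuclear body protein, at -2.27, whose 2 other probes gave 0.20 and 0.42. Dimmer probes of some other genes also passed 2-fold in A549. They gave 1.65 for APOL6, 1.48 for HELZ2 and -1.01 for TRIM14, against 0.94, 0.13 and -0.78 at the brightest probes. Of the NF-kappaB targets, which answer to foreign RNA by a separate branch, 1 of 10 was past 2-fold in HCT116, and higher (all genes, 1.16%). It was BIRC3, an inhibitor of apoptosis, at 1.14, with 24.8% of surrounding dim spots bright. In A549 0 of 13 passed 2-fold (all genes, 5.57% lower and 4.0% higher), too few genes to tell from these shares. The medians of the NF-kappaB targets were 0.24 and 0.017. ICAM1, an adhesion molecule outside those 13, was well above background in A549 with miR-891b only, at -1.26 beside -3.62 with NC1, and at least 5.15-fold higher.

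**Figure D4:**
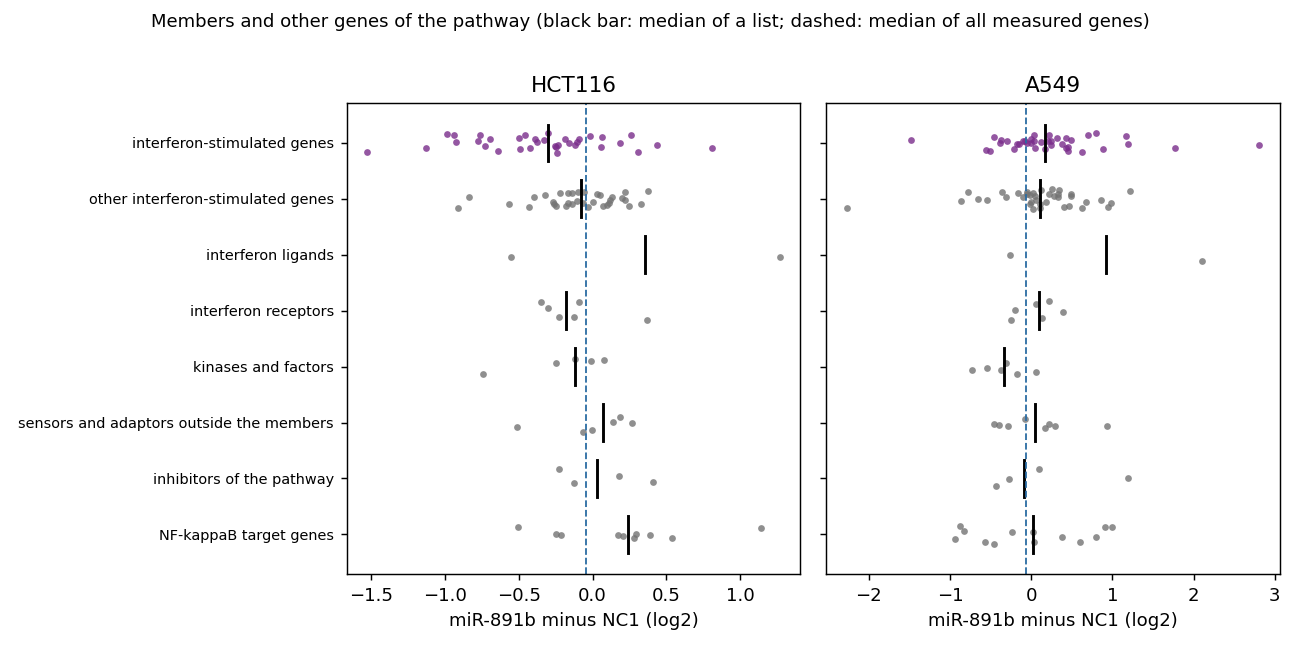
Difference between miR-891b and NC1 (log2) for each measured gene of the 46 interferon-stimulated genes (purple) and of 7 further lists (grey) in HCT116 and A549, with a black bar at the median of each list and a dashed line at the median of all measured genes. The 46 genes lie to the left in HCT116 (median -0.30) and to the right in A549 (median 0.17), and IFNE is the isolated ligand on the right in both panels.

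Split by the promoter sequence shown above, the 19 measured genes with a response element match had a median of -0.33 in HCT116, against -0.14 for 8 genes without a match and -0.57 for 8 genes with no promoter in the table. In A549 the medians were 0.18 for 18 genes with a match, 0.21 for 10 without and 0.034 for 11 with no promoter in the table, among them OASL. Of the 4 genes higher in A549, IFI44, MX1 and IFIT3 had a match and SAMD9L had none, and both genes lower in HCT116, IFITM1 and BST2, had one. A match was common in the set, at 23 of the 35 genes with a promoter (65.7%), so these few genes do not tie it to the differences.

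Markers of other cells were read on the same arrays. Of 4 leukocyte markers, 3, 3, 2 and 2 were well above background, and they summed to between 0.621 and 3.07 times the percentile. Of 7 fibroblast markers, 2, 2, 4 and 4 were well above background, with sums of 2.64, 2.19, 4.26 and 10.5. COL1A1 and PDGFRB were well above background on all 4 arrays, LUM and THY1 on both A549 arrays, and COL1A2, COL3A1 and DCN on none. LUM, an extracellular matrix proteoglycan, had levels of 1.03 and 3.17 in A549 and was higher by 2.14 with miR-891b, whereas THY1, a surface glycoprotein, differed by -1.04. The part of these markers in the A549 results was not tested.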

How the data were processed

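The deposited scanner files hold an intensity for each spot, which the authors obtained with Feature Extraction 11.5.1.1, per the submitters' processing notes and the file headers, with the background already subtracted. The labels' protocols give Cy3 labelling of 100 ng of total RNA. The deposited table of the authors' log2 values, whose making is not stated, differed from the values computed here by a median of at most 0.0069 on each array, with column medians of -3.8, -3.6, -3.71 and -3.68, and served as an alternative.

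Without the spots marked as outliers, the log2 processed signals of each probe's spots were averaged, and each array's 75th percentile over gene probes was subtracted. For a gene with several probes, the brightest on average was used. Where a probe was well above background on only 1 side, the fold is a bound, set against the higher of the lowest level well above background and the probe's own level on the dim array. limma 3.58.1 in R 4.3.3 fitted the additive model (lmFit, eBayes, Benjamini-Hochberg) on genes well above background on at least 2 of 4 arrays. Other values come from Python 3.11.15, numpy 2.4.6 and pandas 2.3.3. The steps were tested on simulated data. A stray area is a place where, of the spots within 10 rows and 10 columns that all other arrays show as dim, at least 10% exceed background.

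All 46 genes may be named. Values on every array were to be given for genes past 2-fold, for those detected with only 1 of NC1 and miR-891b, and for the 3 highest and 3 lowest over the 4 arrays. The 46 genes and the lists were chosen with earlier results of these data known. Gene names follow the array's design. An item of the pathway lists is not reported here. The alternatives tried were normexp with quantile normalization, quantile normalization, median scaling, the authors' values, the mean over probes, other filters on dim probes, leaving out stray areas, and limits of 1.5-fold and 3-fold. The number of arrays limits the precision.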

Additional observations from a re-analysis of the deposited data

Results flagged for a closer look

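Some differences between miR-891b and NC1 had opposite signs in the 2 lines. The median over the measured genes was -0.30 in HCT116 and 0.17 in A549. MX1 differed by -0.25 in HCT116 and by 1.77 in A549, and IFIT3 by -0.38 in HCT116 and by 1.20 in A549. With 1 array per group, this contrast of the lines was not tested.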

How the results depend on the processing

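In HCT116 normexp correction with quantile normalization gave 0 genes lower by 2-fold and a median of -0.14. In A549 it gave 0 lower, 0 higher and a median of 0.043, and for A549 against HCT116 controls 8 lower, 1 higher and a median of -0.23. The mean over probes gave 1 gene lower in HCT116 (all genes, 0.815%) and a median of -0.24. Restricting to probes well above background on all 4 arrays gave 1 lower there (all genes, 0.675%), since BST2 was not kept. Without a filter on dim probes 1 gene was higher in HCT116 (all genes, 6.44%), 2 were lower in A549 (all genes, 7.11%) and 7 were higher in the control comparison (all genes, 12.2%). At 1.5-fold 10 genes were lower and 1 was higher in HCT116, 8 were higher in A549, and 5 were higher in the controls. At 3-fold the counts were 0 lower in HCT116, 0 lower and 2 higher in A549, and 1 higher in the controls. The shares of all genes past 1.5-fold and 3-fold were not counted, so the counts at these limits cannot be set against them. Median scaling gave a control median of -0.29. Neither median within a line changed sign under any of these alternatives. The median of the additive model did, running from -0.055 to 0.022, while 0 of the set were called under each. Beyond the pull of the offset toward 0 in the normexp setting, the cause of these shifts was not tested. The additive model sets miR-891b against NC1 within each line, and the labels give no replicate numbers by which to pair arrays otherwise. Because of dim probes, 7 to 11 of the 46 genes in a line lack a measured difference.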
